A study of Taeniopygia guttata with 8 samples.

Results

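Chromosome 4A of the zebra finch was described through the 1023 regions that the deposited table places on it, out of 35958 regions in all. They were chosen by the chromosome name alone, so rows on unplaced or random sequence of 4A were not included. H3K27ac, the acetylation of lysine 27 on histone H3, was mapped by ChIP-seq (sequencing of the DNA brought down by an antibody to the mark) in Area X and in RA of adult male birds kept alone in sound-attenuated chambers. The groups were Area X of singing birds (4 libraries), Area X of silent birds (3), RA of singing birds (4) and RA of silent birds (3). Per the labels, brains were taken after light onset and 1 to 2 hours of singing or silence, where the labels of singing samples say 2 hours. Each behaviour had 18 birds, and nuclei were pooled from 6 birds into 3 pools per behaviour. The labels call the tissue laser captured, while the protocol describes dissection under a microscope. The groups share the fixation, the antibody and the dissection, and whole-cell extracts were not analysed here. Column names say minus or plus; minus was taken to mean silent and plus to mean singing, and all directions given for behaviour depend on this.

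H3K27ac is laid down by the acetyltransferases p300 and CBP at active promoters and enhancers, and wide or clustered stretches of it often lie at genes that define a cell type. RA is the robust nucleus of the arcopallium, a pallial motor nucleus whose projection neurons drive the vocal and respiratory motor neurons of song. Area X is the song nucleus of the striatum, part of a basal ganglia loop needed for song learning and variability, and most of its neurons are GABAergic medium spiny cells. Chromosome 4A is an autosome that corresponds to the short arm of chicken chromosome 4, and many of its genes lie on the X chromosome in mammals. RefSeq (assembly bTaeGut7.mat) lists 447 genes on 4A, of which 346 are protein coding. They include GRIA3, an AMPA-type glutamate receptor subunit, HTR2C, a serotonin receptor, NLGN3 and DLG3, which act at the postsynapse, and DCX, a microtubule protein of migrating neurons. Because no source used here names the build of the deposited coordinates, regions carry positions only (starts counted from 1) and none was assigned to a gene. For the same reason the labelled nuclei could not be checked against marker genes.

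Reads in regions ranged from 0.203 M to 10.6 M per library (M, 1000000 reads), and reads on 4A from 6905 to 354283. RA singing library 4 was the shallowest, with a median of 3 reads per 4A region and no read in 188 of them (18.4%). RA singing library 2 had none in 57 regions, and the other libraries in 0 to 7. Across the 1023 regions, RA silent library 2 had a median Spearman coefficient of 0.919 to the Area X libraries and 0.832 to the other RA libraries. RA singing library 4 had 0.825 to Area X and 0.73 to RA. The other 5 RA libraries had 0.639 to 0.765 to Area X and 0.804 to 0.842 to RA. Results between the nuclei are therefore also given without 3 RA libraries (silent library 2, singing libraries 2 and 4), a set named with earlier results of these data known.

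The regions lay within chr4A:7730-20694117 and covered 1438 kb, or 6.95% of that span. Their density of 49.5 regions per Mb was close to the 51.4 per Mb of chromosome 10, which has nearly the same length, and above the 21.4 per Mb of chromosome 4. Their median width was 780 bp (quartiles 436 and 1668 bp), against 764 bp (442 and 1450 bp) over all regions. Wide regions were more frequent: 70 regions, 6.84%, were over 4000 bp, against 4.31% of all regions, and they held 38.9% of the signal on 4A, against 26.95% over all chromosomes. Signal was counted as CPM, reads per 1000000 reads in regions after TMM scaling, which evens out library composition. The median CPM per region was 14.1 on 4A and 13.8 over all regions.

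Regions were spaced unevenly along 4A. The median gap between neighbours was 5914 bp, but 29 gaps exceeded 100 kb. The widest, 594.6 kb, was at chr4A:3236417-3830980, and gaps of 570.7 and 500.3 kb were at chr4A:1925586-2496284 and chr4A:14992189-15492442. The third and the fourth 1 Mb bins held only 5 and 6 regions. The densest bin was the 20th, from 19 to 20 Mb, which held 90 regions and 13.2% of the signal on the chromosome.

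Chromosome 4A took a slightly larger share of the reads in Area X than in RA, and the difference did not pass the test over all chromosomes. The share was 3.37%, 3.36%, 3.41% and 3.62% in Area X singing libraries 1 to 4 and 3.38%, 3.29% and 3.35% in Area X silent libraries 1 to 3. In RA singing libraries it was 3.16%, 3.30%, 3.42% and 3.41%, and in RA silent libraries 3.13%, 3.23% and 3.16%. The nuclei overlapped, since RA singing libraries 3 and 4 were about level with the second highest Area X library. The widest 95% exact binomial (Clopper-Pearson) interval reached 0.0793 percentage points to either side, in RA singing library 4. These intervals cover counting error only. The mean was 3.40% ± 0.105 in Area X, against 3.26% ± 0.119 in RA (SD, n = 7 each), a difference of 0.139 percentage points (exact two-sided permutation p = 0.035, Benjamini-Hochberg adjusted p = 0.0641 over 33 placed chromosomes, of which 14 passed). Without the regions of the domains described below, which were chosen from their values in the nuclei, the difference was 0.0805 points, a description with no test. With all regions of 4A, it passed without RA singing library 3 (0.166 points, adjusted p = 0.037) and without RA singing library 4 (0.164 points, adjusted p = 0.0321), and with all 3 RA libraries named above left out it was 0.179 points (adjusted p = 0.0522).

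The comparison of Area X with RA asked which parts of the chromosome carry more H3K27ac in each nucleus. Averaged over behaviour, 302 of the 1023 regions were higher in Area X (29.5%) and 269 were higher in RA (26.3%), by edgeR's quasi-likelihood test with p-values adjusted over all 35954 regions tested and a threshold of 0.05. Over all regions these shares were 28.5% and 25.3%. Together 571 regions of 4A (55.8%) differed, against 53.7% of all regions, and the 30 chromosomes with at least 100 regions ranged from 44.4% to 58.1%. The count on 4A was thus near the background. These are bulk measurements, in which fewer cells with the mark and less of the mark per cell cannot be told apart. The chromosome was taken up with the differences between the nuclei known, so the counts are a description.

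The differences on 4A were mostly moderate in size. Called regions of 4A had a median fold of 2.44 toward Area X and 2.21 toward RA. More than 2-fold was reached by 228 (75.5%) and 178 (66.2%) of them. Over all called regions, the median folds were 2.54 and 2.31, and 76.8% and 73.1% exceeded 2-fold. The lowest Area X library was above the highest RA library in 60 regions (5.87%, against 4.38% of all regions), and the reverse held in 43 (4.2%, against 3.67%). The balance of the directions moved with the scaling: with total counts in place of TMM, 219 regions passed toward Area X and 362 toward RA, and the median over all regions was -0.35 on the log2 scale, against -0.04 with TMM. Over all 35954 regions tested, total counts gave 7045 toward Area X and 12301 toward RA, so the turn was not particular to 4A. Without the 3 RA libraries named above, the counts on 4A were 313 and 336, and over all regions 10960 and 11035.

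Width went with direction. Of the 70 regions wider than 4000 bp, 65.7% passed toward Area X and 15.7% toward RA, with a median log2 fold change of 1.01. Among the 323 regions of up to 500 bp, 16.4% passed toward Area X and 28.5% toward RA, with a median of -0.37. Over all regions, the wide class had 62.2% toward Area X and 20.4% toward RA, and the narrow class 17.5% toward Area X and 25.4% toward RA. Narrow regions hold fewer reads, and the part of depth in this difference was not tested.

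Of the 1 Mb bins along the chromosome, those with the largest median differences lay at 4 to 5 Mb toward Area X and at 13 to 14 Mb toward RA. In the bin from 4 to 5 Mb, 37 of 48 regions passed toward Area X and 1 toward RA, with a median log2 fold change of 1.58. Its summed CPM was 3818 ± 1339 in Area X, against 1495 ± 692 in RA (SD, n = 7 each), with ranges of 2294 to 6099 in Area X and 795 to 2669 in RA that overlapped. From 1 to 2 Mb, 26 of 45 regions passed toward Area X and 2 toward RA, with a median of 1.11. From 13 to 14 Mb, no region passed toward Area X and 16 of 36 passed toward RA, with a median of -0.89. That bin had 386 ± 32.6 CPM in Area X (344 to 432) and 642 ± 124 CPM in RA (504 to 874), with no overlap. The bins from 9 to 10 Mb (4 regions toward Area X and 30 toward RA, of 61), 6 to 7 Mb (7 and 28, of 71) and 20 to 21 Mb (4 and 20, of 43) also leaned to RA. The median log2 fold change was above 0 in 11 of 21 bins with TMM scaling, and in 6 with total counts.

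**Figure D1:**
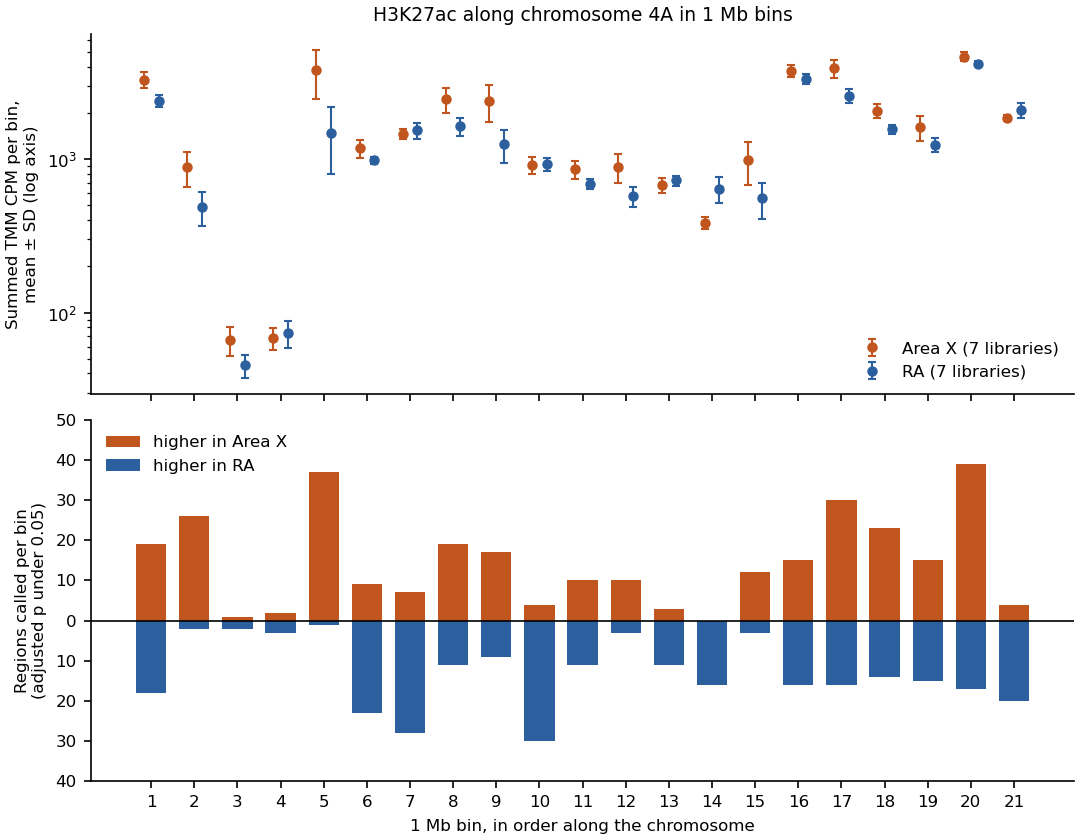
H3K27ac along chromosome 4A in 21 bins of 1 Mb, in order from the start. The upper panel shows the summed TMM CPM of each bin on a log axis (mean ± SD of 7 Area X and 7 RA libraries) and the lower panel the number of regions called higher in Area X (up) and in RA (down). The bin from 4 to 5 Mb has 37 regions up and 1 down, and the bin from 13 to 14 Mb has 0 and 16.

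Close neighbours differed between the nuclei in the same direction more often than distant ones. The 2 log2 fold changes had the same sign in 80.4% of the pairs with gaps of up to 1 kb, 72.5% at 1 to 10 kb, 66.2% at 10 to 100 kb and 51.7% farther apart, against 85.1%, 77.1%, 65.6% and 58.8% over all chromosomes. The Pearson correlation of their log2 fold changes was 0.83 over 112 pairs with gaps of up to 1 kb, 0.64 over 520 pairs of 1 to 10 kb, 0.45 over 361 pairs of 10 to 100 kb, and -0.05 over 29 pairs farther apart. Over all chromosomes these values were 0.86, 0.70, 0.44 and 0.23. Neighbours share libraries and can be parts of 1 stretch of chromatin, so the pairs are not independent.

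Called neighbours formed 12 runs on 4A, a run being at least 5 consecutive regions called in the same direction with gaps of at most 10 kb. Of these, 8 were toward Area X and 4 toward RA, and over all placed chromosomes 205 and 153. The strongest run toward Area X was at chr4A:4780419-4835515, where 10 regions summed to 2220 ± 715 CPM in Area X and 841 ± 406 CPM in RA, a 2.64-fold difference. At chr4A:16911601-16951462, 7 regions summed to 1720 ± 339 CPM in Area X and 705 ± 276 CPM in RA, with ranges of 1200 to 2160 in Area X and 450 to 1100 in RA that did not overlap. Other runs toward Area X lay at chr4A:7646388-7669643, chr4A:8182982-8223499 and chr4A:16751192-16775134, with folds of 2.35, 2.45 and 2.68. Toward RA, 6 regions at chr4A:20216288-20237759 summed to 163 ± 28.5 CPM in Area X and 380 ± 89.7 CPM in RA, 2.34-fold higher in RA. The run at chr4A:9758331-9775701 was faint, with 7.25 ± 3.58 CPM in Area X and 25.8 ± 7.84 CPM in RA over 5 regions, and had the largest fold of the runs, 3.56-fold higher in RA. The others toward RA, at chr4A:15698430-15723187 and chr4A:19580128-19616666, were 1.99 and 1.96-fold higher in RA. The remaining 3 runs held, lay within or adjoined the domains described below. With total counts, 6 runs were toward Area X and 8 toward RA.

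Regions are named where libraries did not overlap, the mean reached the median of 13.8 CPM and the fold was among the 10 largest of a direction. On 4A, 49 regions met the first conditions toward Area X and 30 toward RA, the sets from which the named ones were taken. The share of all regions that met them is not given, so these counts carry no comparison with the background. The largest fold toward Area X was at chr4A:4949721-4950686 (966 bp). CPM was 24.8, 20.7, 42.5 and 36.8 in Area X singing libraries 1 to 4 and 20.1, 31.7 and 28.5 in Area X silent libraries 1 to 3. It was 4.23, 5.84, 4.54 and 17.4 in RA singing libraries and 6.01, 14.1 and 2.41 in RA silent libraries. The RA values fell into 5 libraries of 6.01 CPM or less and the pair that stands apart, RA silent library 2 and RA singing library 4, which came closest to Area X. In RA singing library 4, 1 read equals 4.35 CPM, so its 17.4 CPM rests on few reads, as does its place below Area X. The means were 29.3 ± 8.31 CPM in Area X and 7.79 ± 5.65 CPM in RA. The log2 fold change of edgeR's model was 2.17 (SE 0.37, edgeR adjusted p = 0.000994), or 4.49-fold. Folds of single regions come from this model and can differ from the ratio of the means. Those of runs and domains are ratios of mean CPM.

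The second largest fold toward Area X, 3.98, was at chr4A:8182982-8183842 (861 bp), the first region of a run. CPM there was 22.1, 19, 28.9 and 28.2 in Area X singing libraries and 20.7, 20.3 and 27.2 in Area X silent libraries, against 5.99, 0.0, 9.36 and 4.35 in RA singing libraries and 4.11, 11.9 and 3.01 in RA silent libraries. RA silent library 2 was the highest of the RA libraries here. The strongest run toward Area X gave a pair of named regions side by side, chr4A:4809986-4812641 with 146 ± 38.4 CPM in Area X and 44.5 ± 25.8 CPM in RA (3.35-fold), and chr4A:4806493-4809345 with 249 ± 85.4 CPM in Area X and 80.3 ± 47.7 CPM in RA (3.23-fold). At chr4A:6241067-6245243 (4177 bp), CPM was 276 ± 54.7 in Area X, against 90.2 ± 47.3 in RA (log2 fold change 1.67, SE 0.29, edgeR adjusted p = 0.00105). That region stood in a bin in which most called regions were higher in RA.

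At chr4A:919793-920350, CPM was 24.8 ± 3.12 in Area X, against 7.70 ± 3.85 in RA (3.15-fold), with RA singing library 2 at 1.67 CPM, below the 8.69 to 9.64 of the other RA singing libraries. At chr4A:15764927-15769669 (4743 bp), it was 211 ± 39.2 in Area X, against 68.6 ± 42.7 in RA (3.12-fold), with RA silent library 2 at 155.5 CPM and the other RA libraries at 33.7 to 74.9. Another 3 of the 10, chr4A:19075075-19075850, chr4A:19066542-19069595 and chr4A:19070665-19072738, lay together in 1 run of 7 regions just beyond the domain near the end of 4A, with folds of 3.67, 3.05 and 2.99. The 10 regions had edgeR adjusted p-values of 0.000994 to 0.00265, and 3 of them come from a single stretch of 28.8 kb.

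Toward RA, 7 of the 10 named regions lay beyond 19 Mb, some of them in the same run. The end of 4A did not lean to RA as a whole. From 19 to 20 Mb, 39 of 90 regions passed toward Area X and 17 toward RA, with a median log2 fold change of 0.30. From 20 to 21 Mb, 4 of 43 passed toward Area X and 20 toward RA. The largest fold toward RA was at chr4A:20216288-20216882 (595 bp). CPM was 6.57, 7.72, 5.99 and 4.22 in Area X singing libraries and 8.10, 4.93 and 5.12 in Area X silent libraries. It was 20.3, 19.2, 28.7 and 26.1 in RA singing libraries and 23.7, 13.5 and 26.8 in RA silent libraries. Every RA library was above every Area X library, and RA silent library 2 was the lowest of RA. The means were 6.09 ± 1.45 CPM in Area X and 22.6 ± 5.29 CPM in RA (log2 fold change -1.876, SE 0.26, edgeR adjusted p = 0.000619), 3.67-fold higher in RA. The same run held chr4A:20221348-20223229, with 18.3 ± 2.96 CPM in Area X and 51.8 ± 11.98 CPM in RA (log2 fold change -1.53, edgeR adjusted p = 0.00058), and chr4A:20231666-20235250, with 44.5 ± 10.7 CPM in Area X and 111 ± 27.4 CPM in RA (log2 fold change -1.34).

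Farther from the end, chr4A:6151923-6154949 (3027 bp) had 19 ± 6.96 CPM in Area X and 57.4 ± 12.6 CPM in RA (3.03-fold higher in RA), chr4A:6536728-6538796 had 16.4 ± 3.25 CPM in Area X and 40.5 ± 9.62 CPM in RA, and chr4A:16129395-16132710 had 29.2 ± 3.79 CPM in Area X and 74.99 ± 19.8 CPM in RA. At chr4A:19161768-19162746, 7.55 ± 1.85 CPM in Area X stood against 22.1 ± 7.32 CPM in RA, with RA singing library 1 at 24.7 CPM, above the 17.3 to 18.4 of the other RA singing libraries. The remaining regions toward RA were chr4A:20612610-20614592, chr4A:19670859-19671789 and chr4A:19997384-20004952, with folds of 2.69, 2.66 and 2.52. The 20 named regions kept their direction and stayed past the threshold under each alternative that gave a value. They were picked from these same libraries for large folds without overlap, so this is no independent support.

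**Figure D2:**
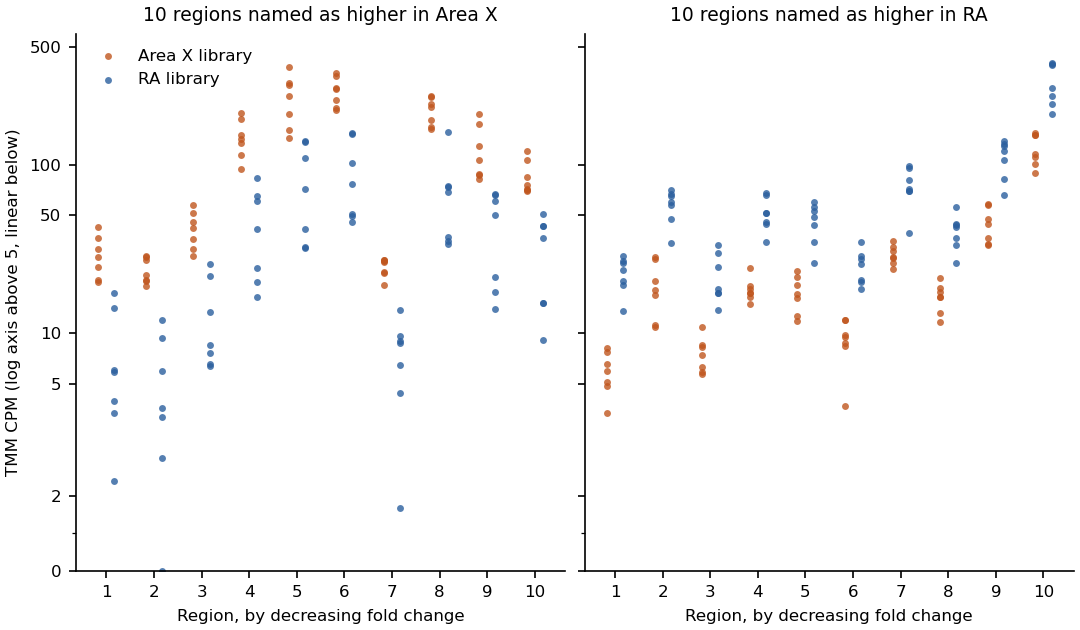
TMM CPM of each library (axis logarithmic above 5 and linear below) at the 10 regions named as higher in Area X (left panel) and the 10 named as higher in RA (right panel), in order of decreasing fold change, with Area X points left of RA points. In no region do libraries of the nuclei overlap; the first region of the left panel has 20.1 to 42.5 CPM in Area X and 2.41 to 17.4 CPM in RA.

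The strongest regions of the chromosome did not share a direction. The widest was also the one of highest signal, chr4A:19956393-19986302, which spans 29910 bp and held 2.26% of the signal on 4A. CPM was 547, 505, 359 and 472 in Area X singing libraries and 535, 394 and 388 in Area X silent libraries. It was 1208, 1014, 1200 and 730 in RA singing libraries and 1200, 740 and 1356 in RA silent libraries. All RA libraries were above all Area X libraries, with a mean of 457 ± 76.4 CPM in Area X and 1064 ± 246 CPM in RA (log2 fold change -1.23, SE 0.19, edgeR adjusted p = 0.000862). Per kb of width, its mean level of 25.4 CPM was lower than the 58.6 CPM of the region of second highest signal, chr4A:4784546-4795328 (10783 bp), in the strongest run toward Area X. That region had 895 ± 260 CPM in Area X and 369 ± 151 CPM in RA, 2.42-fold higher in Area X (edgeR adjusted p = 0.00162), with ranges of 571 to 1331 CPM in Area X and 233 to 626 CPM in RA that overlapped.

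The third, chr4A:16920564-16929644 (9081 bp), had 772 ± 141 CPM in Area X and 270 ± 123 CPM in RA (log2 fold change 1.53, SE 0.26, edgeR adjusted p = 0.000938). Next came chr4A:14466714-14474871 (8158 bp), where CPM was 516 ± 166 in Area X, against 225 ± 104 in RA, and at chr4A:8277032-8287924 (10893 bp) it was 320 ± 117 in Area X, against 140 ± 61.8 in RA, both higher in Area X (edgeR adjusted p = 0.00341 and 0.00464) with libraries that overlapped. A pair of wide neighbours had similar levels in both nuclei. At chr4A:15726525-15737524 (11000 bp), CPM was 365 ± 46.2 in Area X, against 367 ± 52.0 in RA (log2 fold change -0.01, SE 0.15, edgeR adjusted p = 0.963). Its neighbour chr4A:15741580-15752154 (10575 bp) had 214 ± 19 CPM in Area X, against 218 ± 30.2 CPM in RA (log2 fold change -0.04, SE 0.16, adjusted p = 0.841). The run toward RA that ended at 15723187 and the region named toward Area X that began at 15764927 lay on either side of this pair.

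The first of the domains, near the start of 4A, was chosen from its values in Area X and RA, so its differences between the nuclei are given with no test. It spans chr4A:1811286-1880850, and its 14 regions cover 31.7% of 69.6 kb and held 1.06% of the signal on 4A. Its summed CPM was 351, 332, 637 and 641 in Area X singing libraries 1 to 4 and 337, 632 and 606 in Area X silent libraries 1 to 3. It was 125, 210, 206 and 343 in RA singing libraries and 96.2, 353 and 152 in RA silent libraries. The Area X libraries fell into 3 of at most 351 CPM and 4 of at least 606 CPM. RA silent library 2 and RA singing library 4 lay within the range of Area X, and the other RA libraries were below it.

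The summed CPM averaged 505 ± 155 in Area X, against 212 ± 102 in RA (SD, n = 7 each), or 2.38-fold, and the mean difference of log2 values was 1.33 (SE 0.32). Its log2 difference was 1.01 with total counts and 1.77 without the 3 RA libraries named above. Those 3 had the highest RA values in this domain, so leaving them out had to raise the difference. As a share of all signal on 4A, the domain held 0.956% to 1.62% in Area X libraries and 0.359% to 1.15% in RA libraries. All 14 regions had a higher mean in Area X, with log2 fold changes of 0.88 to 1.85 and a median of 1.41, and in each of them libraries of the nuclei overlapped. The strongest was chr4A:1828385-1831141, with 134 ± 30.2 CPM in Area X and 52.6 ± 26.99 CPM in RA. Next were chr4A:1811286-1814890, the first region of the domain, with 83.3 ± 34.5 CPM in Area X and 35.2 ± 16.1 CPM in RA, and chr4A:1876895-1880850, the last, with 59.3 ± 27.1 CPM in Area X and 22.8 ± 16.2 CPM in RA. These 3 held 54.0% of the domain's signal. Per kb of width, the strongest region had 48.8 CPM in Area X and 19 CPM in RA.

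The edges of this domain were not sharp. Before it, chr4A:1794527-1794918 had 6.37 ± 2.21 CPM in Area X and 8.70 ± 3.49 CPM in RA (log2 fold change -0.49), but the region preceding that one, chr4A:1787382-1790581, had 78.2 ± 37.0 CPM in Area X and 31.8 ± 18.5 CPM in RA (1.33), much like the domain's own members. After it, chr4A:1882999-1883440 and chr4A:1884288-1884505 continued the direction, with log2 fold changes of 1.99 and 2.85 at low levels of 13.8 and 3.85 CPM in Area X. The run that holds the domain therefore had 16 regions and ended at 1884505, shortly before the 570.7 kb gap.

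The second domain, near the end of 4A, was chosen in the same way and likewise has no test. It spans chr4A:18970398-19050640, and its 16 regions cover 35.0% of 80.2 kb and held 2.28% of the signal on 4A. Its summed CPM was 890.5, 898.5, 1187 and 1231 in Area X singing libraries and 842, 1098 and 1196 in Area X silent libraries. It was 339, 566, 456 and 691 in RA singing libraries and 356, 667 and 352 in RA silent libraries. All Area X libraries were above all RA libraries, and RA singing library 4 and RA silent library 2 were the highest of RA.

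The means were 1049 ± 167 CPM in Area X and 490 ± 152 CPM in RA, a 2.14-fold difference, with a mean log2 difference of 1.14 (SE 0.19). This was 0.82 with total counts and 1.45 without the 3 RA libraries. Here too those 3 had the highest RA values, so leaving them out had to raise the difference. The domain held 2.59% to 2.92% of the 4A signal in Area X libraries and 1.17% to 2.30% in RA libraries. All 16 regions had a higher mean in Area X, with log2 fold changes of 0.18 to 1.78, and in 6 of them the nuclei did not overlap. Area X lay above RA without overlap in 5.87% of 4A regions and 4.38% of all regions. The domain was chosen from these same values, so its higher count is a description and no support. The 3 strongest held 64.6% of the domain's signal. They were chr4A:19019494-19024699 with 235 ± 30.4 CPM in Area X and 123 ± 38.6 CPM in RA, chr4A:19000783-19006329 with 234 ± 50.8 CPM in Area X and 89.1 ± 42.8 CPM in RA, and chr4A:18980862-18985290 with 209 ± 45.2 CPM in Area X and 103 ± 36.2 CPM in RA. At the first of them, RA singing library 4 had 196 CPM and the other RA singing libraries 95.9 to 109 CPM. The smallest log2 fold change, 0.18, was at the first region, chr4A:18970398-18970695, which had 5.45 ± 1.75 CPM in Area X and 5.09 ± 2.78 CPM in RA.

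Regions beyond the bounds of this domain were higher in Area X as well. The run inside the domain held 14 regions and began at 18974411. The domain's first regions, chr4A:18970398-18970695 and chr4A:18972241-18972506, with log2 fold changes of 0.18 and 0.74, were not in that run. They lay between it and the regions before the domain. Before it, chr4A:18963222-18966269 had 140 ± 34.5 CPM in Area X and 59.3 ± 23.4 CPM in RA, and chr4A:18966830-18968966 had 69.2 ± 21.5 CPM in Area X and 31.9 ± 7.33 CPM in RA. After it came the run of 7 regions with the 3 regions named toward Area X, which summed to 446 ± 89.0 CPM in Area X and 167 ± 66.0 CPM in RA.

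**Figure D3:**
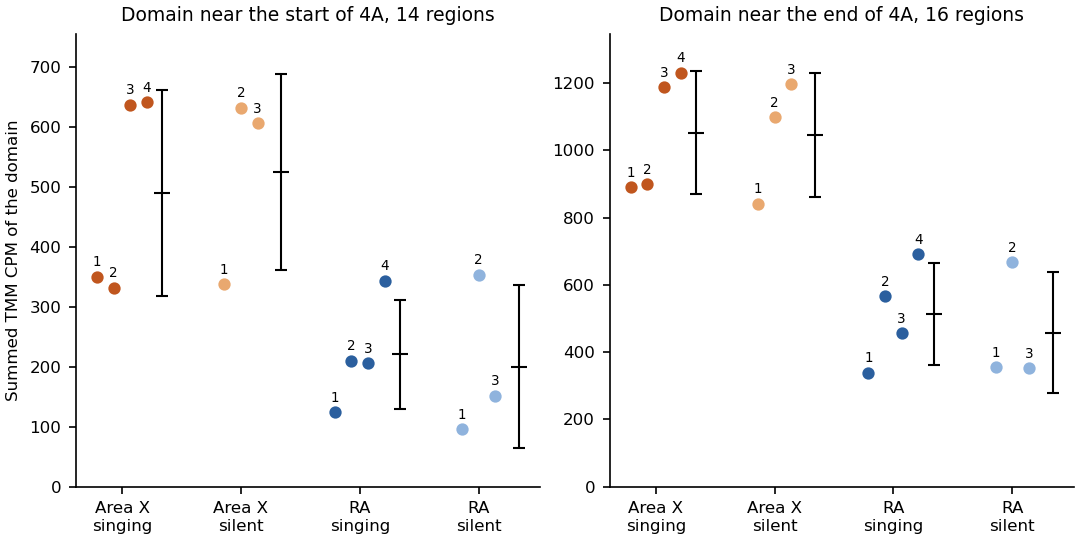
Summed TMM CPM of the domain near the start of 4A (left, 14 regions) and the domain near the end (right, 16 regions) in each library, numbered as in the deposited table, with the mean ± SD of each group in black. Near the end of 4A every Area X library is above every RA library; near the start, RA silent library 2 (353 CPM) and RA singing library 4 (343 CPM) lie within the Area X range of 332 to 641 CPM.

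**Figure D4:**
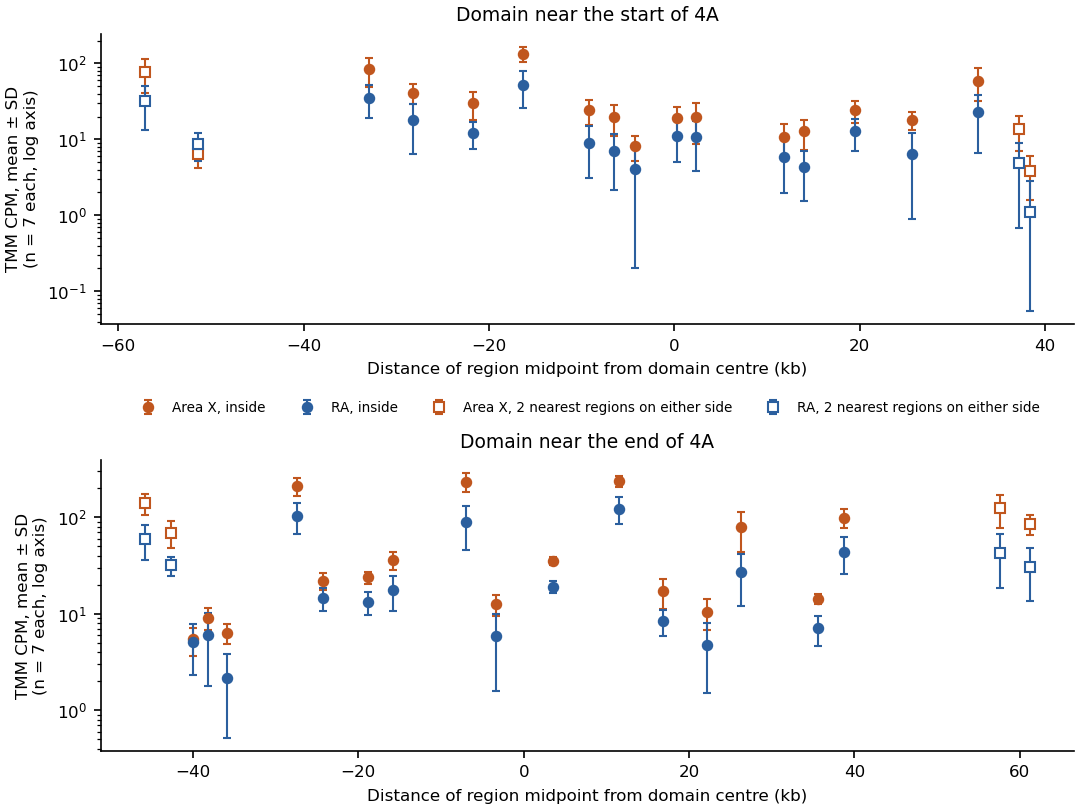
TMM CPM of each region of the domains on a log axis (mean ± SD, n = 7 libraries of each nucleus) against the distance of its midpoint from the domain's centre, with open squares for the nearest pair of regions on either side; lower bars are cut short of 0 where the SD is close to or above the mean. Area X is above RA at all 14 and all 16 regions; of the outside regions, the one just before the domain near the start of 4A has 6.37 CPM in Area X and 8.70 CPM in RA.

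Within each behaviour, fewer regions of 4A passed the test than in the average. Among singing birds, 126 regions passed toward Area X and 83 toward RA, together 20.4% of 4A against 18.5% of all regions (10.4% and 8.09% by direction). Among silent birds, 128 passed toward Area X and 93 toward RA, together 21.6%, against 19.8% of all regions (10.3% and 9.5% by direction). With total counts in place of TMM, the balance turned toward RA, with 56 toward Area X and 154 toward RA in singing and 58 and 124 in silent birds. Over all regions it turned as well, with 1555 toward Area X and 5579 toward RA in singing and 1911 and 4815 in silent birds. Toward Area X, 66 regions were called in both, which is 52.4% of those called in singing and 51.6% of those in silent birds. Toward RA, 58 were called in both, 69.9% of those in singing and 62.4% of those in silent birds, and no region was called in opposite directions. How many of all regions were called in both is not given, so these shares carry no comparison with the background. The domains had similar folds in both: near the start of 4A, Area X was 2.22-fold above RA in singing and 2.62-fold in silent birds, and near the end 2.05-fold in singing and 2.28-fold in silent birds.

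These counts rested on single libraries. The smallest adjusted p-values on 4A were 0.0206 in singing and 0.0283 in silent birds. In singing birds, no region of 4A passed without RA singing library 3, Area X singing library 3 or Area X singing library 4. None of all regions tested passed in these settings either. On 4A, 54 passed without RA singing library 1 (12 toward Area X and 42 toward RA). Without RA singing library 2, 86 passed (36 and 50), and without Area X singing library 2, 96 passed (68 and 28). Over all regions, the counts in these 3 settings were 428 and 1558, 981 and 1866, and 1925 and 947. In silent birds, none passed without RA silent library 1 or 3 or Area X silent library 2 or 3, whereas 416 passed when RA silent library 2 was left out and 339 when Area X silent library 1 was. Over all regions, none passed without Area X silent library 2 or 3. Without RA silent library 1, 10 of all regions passed, and without RA silent library 3, 3 passed, all toward RA. Without RA silent library 2, 8544 of all regions passed toward Area X and 5977 toward RA. Without Area X silent library 1 these were 5777 and 5265. Leaving out RA singing library 3, Area X singing library 2 or Area X singing library 4 gave 130, 119 and 136 in silent birds. By direction these were 61 toward Area X and 69 toward RA, 62 and 57, and 69 and 67. Over all regions they were 1660 and 2475, 1663 and 1930, and 1813 and 2150. These left-out singing libraries are no part of the silent comparison but enter the scaling, the filter and the estimate of the spread. At an unadjusted p under 0.05 the counts on 4A were 418 (40.9%, against 39.7% of all regions) in singing birds. In silent birds they were 458 (44.8%, against 43.9% of all regions).

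Singing was compared with silence to ask whether H3K27ac changes with the behaviour, the comparison stated in the series' design. No region of 4A passed the edgeR test, in Area X, in RA, in both averaged, or when the effect of singing in Area X was set against that in RA. The share called over all regions was 0.0% in each, and DESeq2 also called none on 4A. At an unadjusted p under 0.05 there were 13 regions on 4A in Area X (1.27%, against 1.07% of all regions), 19 in RA (1.86%, against 1.96%), 28 in both averaged (2.74%, against 2.6%) and 6 for the difference between nuclei (0.587%, against 0.587%). At the median region, the 95% interval of the log2 fold change reached 0.91 to either side in Area X and 0.95 in RA. For both averaged it reached 0.66. These intervals are for single regions without adjustment, and a change had to be larger still to pass over all regions.

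The mean share of reads on 4A was slightly higher with singing in both nuclei, but libraries overlapped and neither difference passed the test. It was 3.44% ± 0.121 in singing and 3.34% ± 0.0477 in silent Area X (n = 4 and 3, exact two-sided permutation p = 0.229, adjusted p = 0.971), and 3.32% ± 0.12 in singing and 3.17% ± 0.0495 in silent RA (exact permutation p = 0.143, adjusted p = 0.971). The smallest p that 4 against 3 libraries allow is 0.0286, before adjustment, so 4A alone could not pass over the 33 chromosomes. The domains were close to even: singing over silent was 0.93 in Area X and 1.10 in RA near the start of 4A, and 1.01 in Area X and 1.12 in RA near the end. Their regions had median log2 fold changes with singing of -0.26 in Area X and 0.09 in RA near the start, and of 0.13 in Area X and 0.12 in RA near the end.

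In Area X, singing libraries did not overlap silent ones in 50 regions of 4A (4.89%, against 3.44% of all regions), and 21 of these were lower with singing (2.05%, against 1.63%). In RA these were 7 higher (0.684%, against 0.548%) and 17 lower (1.66%, against 1.73%). In both nuclei at once, 3 regions were higher with singing (0.293%, against 0.0473%) and 1 was lower (0.0978%, against 0.103%), and all 4 are given below.

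For singing against silence, the smallest p on 4A came with both nuclei averaged, at chr4A:1732861-1733248, a 388 bp region in the 1 Mb bin of the first domain. CPM was 3.58, 2.89, 5.72 and 3.10 in Area X singing libraries and 6.28, 11.6 and 10.96 in Area X silent libraries. In RA singing libraries it was 0.18, 0.0, 0.85 and 0.0, from 1, 0, 3 and 0 reads, and in RA silent libraries 2.06, 3.98 and 1.71, from 13, 18 and 17 reads. Singing libraries were below silent ones in both nuclei, at low counts. The log2 fold change averaged over both was -2.003 (95% interval -2.96 to -1.04, unadjusted p = 0.000353, edgeR adjusted p = 1.0), so it did not pass over all regions.

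Among wider regions, chr4A:16216623-16221632 (5010 bp) had 129, 133, 178 and 148 CPM in Area X singing libraries and 101, 80.2 and 80.0 CPM in Area X silent libraries. In RA it had 138, 136, 153 and 126 CPM in singing libraries and 112, 85.7 and 122 CPM in silent libraries. The 126 CPM of RA singing library 4 came from only 29 reads and was little above the highest silent value. Singing was above silence in both nuclei, with a log2 fold change of 0.57 averaged over both (95% interval 0.22 to 0.92, edgeR adjusted p = 1.0). In Area X, chr4A:19371648-19376421 (4774 bp) had 148 ± 16.5 CPM in singing (n = 4) and 90.1 ± 3.39 CPM in silent libraries (n = 3), a log2 difference of 0.72 with an interval of 0.20 to 1.23 (edgeR adjusted p = 1.0). In RA the groups overlapped there, with 125 ± 21.1 CPM in singing and 101 ± 22.5 CPM in silent libraries.

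The other regions without overlap were narrow. At chr4A:9414668-9415141 (474 bp), CPM was 18.0 ± 5.73 in singing and 9.25 ± 3.06 in silent Area X. In RA it was 15.3 ± 5.57 in singing libraries, of which library 4 held 3 reads, and 8.02 ± 1.53 in silent libraries. At chr4A:18972241-18972506 (266 bp), the second region of the domain near the end of 4A, it was 10.3 ± 2.40 in singing and 7.40 ± 0.62 in silent Area X, and 8.10 ± 4.54 in singing and 3.14 ± 0.95 in silent RA, where RA singing library 4 held 1 read.

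The smallest p for a difference of the effect between nuclei was at chr4A:19269429-19269734 (306 bp). CPM there was 4.44 ± 0.90 in singing and 4.91 ± 2.17 in silent Area X, and 5.43 ± 2.87 in singing and 1.20 ± 0.77 in silent RA. The RA values rest on 11, 10, 25 and 1 reads in singing libraries and 3, 5 and 20 reads in silent libraries. The difference of the log2 changes was -2.25 (95% interval -4.02 to -0.48, edgeR adjusted p = 1.0). At chr4A:766672-766933 it was 1.71 and at chr4A:17674030-17674645 it was 1.78, and neither passed (edgeR adjusted p = 1.0 for both). At chr4A:766672-766933, RA singing libraries 1 to 4 held 17, 2, 7 and 0 reads. At chr4A:17674030-17674645, RA singing library 2 had no read, and the other RA singing libraries had 7.66 to 17.4 CPM. The 17.4 CPM, in RA singing library 4, came from 4 reads.

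**Figure D5:**
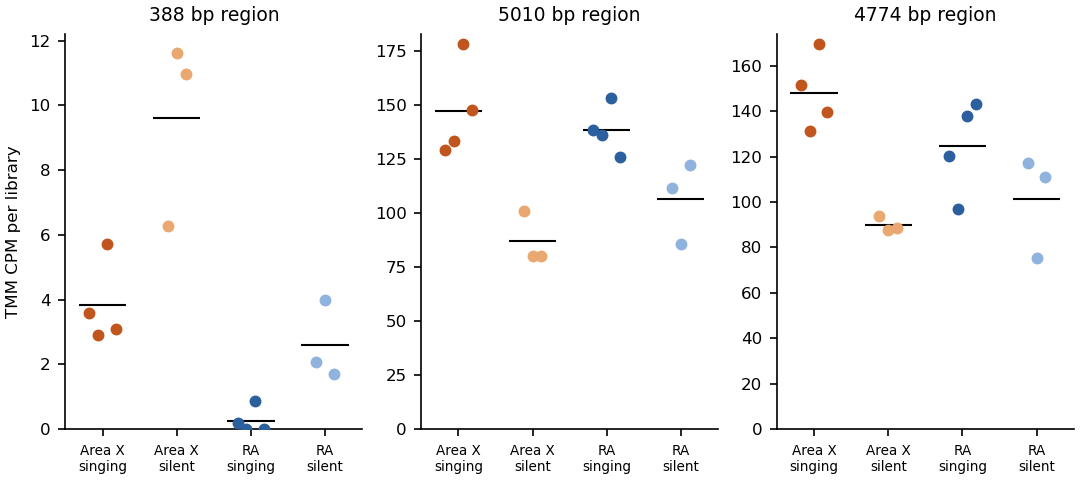
TMM CPM of each library at the 388 bp region at chr4A:1732861-1733248 (left), the 5010 bp region at chr4A:16216623-16221632 (centre) and the 4774 bp region at chr4A:19371648-19376421 (right), with group means as lines; axes start at 0. Singing libraries lie below silent ones in both nuclei at the first and above them in both at the second. RA singing library 4 holds 29 reads at the second. At the third, singing libraries lie above silent ones in Area X and overlap them in RA. None passed the test over all regions.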

How the data were processed

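H3K27ac ChIP-seq reads of Area X and RA were analysed from the table of raw read counts per region that the authors deposited, with 14 libraries. The submitters' processing notes name MACS2 2.1, HTSeq 0.6.1, SAMtools 1.1 and bedtools without saying what each did. No source used here names the aligner, the build or how regions were called. The column names state no assay and were read as H3K27ac. Each nucleus has 4 singing columns, but the labels give 3 pools per behaviour and do not explain the fourth. Each column was treated as a pool of its own. If some repeat a pool, p-values are too small, and both nuclei may come from the same birds.

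Counts were analysed with edgeR 4.0.16 in R 4.3.3: filterByExpr (4 regions removed, none of 4A), TMM, 1 mean per group and robust quasi-likelihood tests, adjusted by Benjamini-Hochberg over all 35954 regions at 0.05. The common biological coefficient of variation was 0.392. Standard errors came from the moderated test, with intervals from its t distribution. The edgeR step was tested on simulated counts. DESeq2 1.42.0, other scalings, filters and left-out libraries were alternatives. Shares were compared by exact permutation of libraries (scipy 1.17.1). Reported CPM is TMM-scaled.

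The chromosome, domains, lists and rules were chosen with earlier results of these data known. Named were the 10 largest folds per direction among called regions without overlap and with a mean CPM at or above the median, the 3 strongest regions of each domain, the 5 strongest and 5 widest regions, and the 3 of smallest p per behaviour contrast; the regions without overlap in both nuclei and the run examples were picked after their values were seen.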

Additional observations from a re-analysis of the deposited data

Results flagged for a closer look

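Among 88 groups of 4 libraries at the named regions, 5 had a library far from the others (Dixon's test at 95%), and chance flags about 1 in 20 groups, or 4.4 here. All 5 were RA singing libraries. RA singing library 4, the shallowest, was high at chr4A:4949721-4950686 (17.4 CPM, others 4.23 to 5.84) and at chr4A:19019494-19024699 (196 CPM, others 95.9 to 109). In that library 1 read equals 4.35 CPM, so the 17.4 CPM rests on few reads. RA singing library 2 was low at chr4A:919793-920350 (1.67 CPM, others 8.69 to 9.64). RA singing library 1 was low at chr4A:15764927-15769669 (35.4 CPM, others 69.3 to 74.9) and high at chr4A:19161768-19162746 (24.7 CPM, others 17.3 to 18.4).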

How the results depend on the processing

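Under the alternatives run, no log2 difference changed sign at the 20 regions named for large folds between the nuclei or in the domains. The same held for the regions of smallest p for behaviour and for the differences in the share of reads. Those 20 regions stayed past the threshold. The strongest and the widest regions, some of them near a log2 fold change of 0, were not followed through the alternatives. The named regions and the domains were chosen from the same libraries, so their stability is no independent support. The balance of calls averaged over behaviour did turn toward RA in some settings. With total counts 219 regions were called toward Area X and 362 toward RA (302 and 269 with TMM). Without RA singing library 2 there were 278 and 280, and without 3 RA libraries 313 and 336. Over all regions it turned as well, with 7045 and 12301 with total counts (10233 and 9083 with TMM). There were 9530 and 9587 without RA singing library 2, and 10960 and 11035 without 3 RA libraries. Within singing birds, the balance on 4A also turned without RA singing library 1 (12 and 42) and without RA singing library 2 (36 and 50). Between the nuclei, averaged over behaviour, 347 regions of 4A were called at an adjusted p under 0.01, a threshold whose count over all regions is not given. There were 307 with a filter at the median CPM, which tests fewer regions, and 422 to 605 when 1 library was left out. Of all regions, that filter gave 5155 toward Area X and 4761 toward RA. The settings with 422 and 605 on 4A gave 7686 and 6444, and 10956 and 9827, over all regions. In singing birds the counts on 4A were 0 at 0.01 and 126 with the median filter (55 toward Area X, 71 toward RA). They were 210 with total counts (56 and 154) and 0 to 288 when 1 library was left out. All regions gave 1503 toward Area X and 2525 toward RA with that filter, and 1555 and 5579 with total counts. In silent birds the counts on 4A were 0 at 0.01, 0 with the compared groups only and 133 with DESeq2 size factors (64 and 69). They were 130 with the filter (57 and 73), 182 with total counts (58 and 124) and 461 without 3 RA libraries. When 1 library was left out they were 0 to 416, and the cause was not tested. Among all regions in silent birds, none passed with the compared groups only. DESeq2 size factors gave 1679 toward Area X and 2401 toward RA, and the filter 1354 and 2636. Total counts gave 1911 and 4815, and leaving out 3 RA libraries 9037 and 6993. Deviations of same-numbered libraries correlated at 0.514 to 0.72 for number 1 and at -0.313 to 0.559 for the others, so the numbers were not taken to pair the libraries, although those numbered 1 deviated together. With a replicate block, 593 regions of 4A were called averaged over behaviour, 312 in singing and 441 in silent birds. Of all regions, the block gave 11347 toward Area X and 9513 toward RA averaged over behaviour. It gave 6809 and 3876 in singing and 8761 and 6482 in silent birds. Bins with a median above 0 numbered 6 with total counts. The share of reads on 4A differed by 0.102 to 0.166 points when 1 library was left out, past the threshold in 2 cases (0.166 and 0.164). Counts for behaviour were 0 under each alternative. The fit with the compared groups only was not run for averages over behaviour or the difference between nuclei, which use all groups.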
